A study of Arabidopsis thaliana with 6 samples.

Results

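The genes described here are 9 calmodulin-like loci of Arabidopsis thaliana of the kind known for responses to touch and other stimuli, taken by gene identifier from the 3 deposited comparison tables. The choice of these loci was made with earlier results of the same data known. They are TCH2 (also CML24, AT5G37770), TCH3 (also CML12, AT2G41100), CML8 (AT4G14640), CML9 (AT3G51920), CML23 (AT1G66400), CML37 (AT5G42380), CML38 (AT1G76650), CML39 (AT1G76640) and CML42 (AT4G20780), 9 of 34262 listed genes and 9 of the 23542 that had reads and a test. RNA of whole seedlings was sequenced in 3 genotypes with 2 libraries each, namely the mutant jmj28, the line JMJ28np5-OE and the wild type WT. All were Col-0, 14 days old and raised in long days at 22 °C. JMJ28 is a JmjC-domain protein of the KDM3 type, a family of histone demethylases acting on lysine 9 of histone H3. The lesion in jmj28, the promoter used in JMJ28np5-OE, the meaning of np5 and the number of independent lines are not stated by the labels. The question was which of these genes differ when JMJ28 is reduced or raised.

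Calmodulins and calmodulin-like proteins bind calcium through EF-hand loops and pass a rise in cytosolic calcium on to target proteins. The TCH genes of Arabidopsis were found through transcripts that accumulate within minutes of touch, and several calmodulin-like transcripts also accumulate after wounding, cold, elicitors or simple handling. CAMTA proteins are calmodulin-binding transcription factors that recognise short elements with a CGCG core in promoters.

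The deposited levels are genotype means in RPKM, reads scaled to exon length and library total, and the whole reads of both libraries behind the highest and the second-highest genotype mean of a gene could be solved from them. Totals were 13549528 and 11791666 reads in jmj28, 12380403 and 10632893 in JMJ28np5-OE, and 19693228 and 14309520 in WT, so 1 read per kilobase was worth 0.0508 to 0.0940 RPKM. Libraries are named by depth because the means carry no replicate number. The lowest genotype of each gene, jmj28 for 8 of the 9, is known only as a mean implied by the deposited fold change, so its spread is not known. JMJ28 itself (listed as B160) had 244 and 307 RPKM in JMJ28np5-OE and 6.90 and 6.50 RPKM in WT, and in the authors' deposited tables its log2 fold change was -1.10 in jmj28 against WT (FDR 3.07e-08) and 5.38 in JMJ28np5-OE against WT (FDR listed as 0). Over genes above 5 RPKM the 2 libraries of a genotype differed on the log2 scale with an SD of 0.18 in jmj28, 0.27 in JMJ28np5-OE and 0.18 in WT. The labels do not say that the libraries of a genotype came from separate plantings, so the spread between them may be technical. The statistical test is not named in the sources used here, so how its p-values use that spread is not known. In whole seedlings, fewer cells of a type and less RNA per cell cannot be told apart.

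The 9 genes spanned a wide range of levels. Highest genotype means lay between 43.1 RPKM for TCH3 and 0.295 RPKM for CML39, and 7 of the 9 reached 1 RPKM. The order of the genes differed between genotypes. By mean level it was CML9, TCH3, CML42, TCH2, CML23, CML38, CML8, CML37 and CML39 in jmj28, where 8 of the means are implied and neighbours cannot be compared with their spread. In JMJ28np5-OE it was TCH3, CML9, TCH2, CML42, CML23, CML38, CML37, CML8 and CML39, and no neighbours overlapped in their libraries, although TCH3 and CML9 came as close as 35.2 and 34.5 RPKM and CML42 and CML23 as close as 8.23 and 8.10 RPKM. In WT it was the same as in jmj28, with CML42 placed by an implied mean of 8.93 RPKM, and CML37 overlapped there with both CML8 and CML39, while CML9 lay above TCH3 in both libraries. The lowest gene, CML39, had no more than 3 reads in any solved library.

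**Figure D1:**
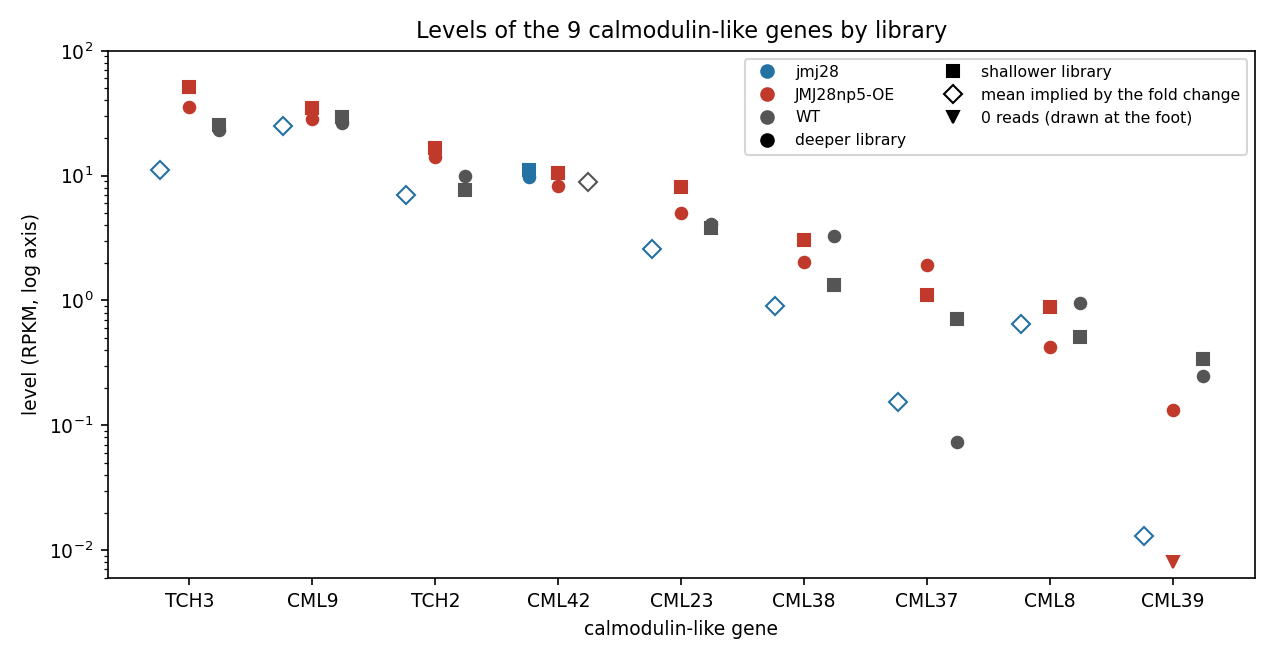
Level of each of the 9 genes (RPKM, log axis) by genotype, with jmj28 to the left, JMJ28np5-OE in the middle and WT to the right. Circles are the deeper and squares the shallower solved library, open diamonds a genotype mean implied by the deposited fold change, and the triangle a library with 0 reads. TCH3 had 35.2 and 50.9 RPKM in JMJ28np5-OE, above both WT libraries, and its implied mean in jmj28 lay below them.

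TCH3 was the only one of the 9 that passed the test in all 3 comparisons, the call in JMJ28np5-OE against WT being lost under the stricter Bonferroni adjustment (p 0.0881) or with at least a 2-fold change asked for. Its level was below WT in jmj28 and above WT in JMJ28np5-OE. TCH3 encodes a calmodulin-like protein with more EF-hand loops than calmodulin has, and it is a long-known touch-inducible transcript. The gene lies on the plus strand of chromosome 2 at 17137037 to 17139700 (TAIR10), with 2548 bases of annotated exon. The implied mean in jmj28 was 11.0 RPKM, about 707 reads over both libraries. The JMJ28np5-OE libraries held 35.2 RPKM (1111 reads) in the deeper and 50.9 RPKM (1379 reads) in the shallower. The WT libraries held 23.1 RPKM (1158 reads) and 25.6 RPKM (932 reads). Both JMJ28np5-OE libraries thus lay above both of WT, and the 2 JMJ28np5-OE libraries stood further apart than those of WT.

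In the authors' deposited table of jmj28 against WT, the log2 fold change of TCH3 was -1.18, a size of 2.27-fold (FDR 3.46e-07). In the authors' deposited table of JMJ28np5-OE against WT it was 0.85, or 1.80-fold (FDR 3.72e-04). Between the altered lines it was -2.03 in jmj28 against JMJ28np5-OE, or 4.10-fold, in the authors' deposited table, which lists this FDR as 0. The comparisons share libraries, so these 3 values are not independent of each other. Without the shallower JMJ28np5-OE library the log2 ratio against WT was 0.53. Gene models AT2G09220 and AT2G41105 lie on the opposite strand and overlap TCH3 by 342 and 827 bases. Both are listed at 0 reads. How reads in such overlaps were counted is not known, and from these values antisense reads could not be told apart from those of TCH3.

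TCH2 and CML23 encode closely related proteins with roles in flowering time and nitric oxide signalling. Both were lower in jmj28 than in JMJ28np5-OE. TCH2 also passed the test in JMJ28np5-OE against WT, a call lost with the Bonferroni p of 0.176 or a 2-fold minimum, and neither gene passed in jmj28 against WT. Translation of the RefSeq coding sequences gave 161 residues for TCH2 and 157 for CML23, with 4 EF-hand loops of 12 residues each and 77.1% identity, the second-highest identity among the 36 pairs of the 9 proteins.

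TCH2 lies on the minus strand of chromosome 5 at 14997514 to 14999619 with 2008 bases of exon. Its implied mean in jmj28 was 7.02 RPKM, about 357 reads over both libraries. The JMJ28np5-OE libraries held 14.0 RPKM (347 reads) and 16.5 RPKM (353 reads), against 9.99 RPKM (395 reads) and 7.62 RPKM (219 reads) in WT, deeper library first. The JMJ28np5-OE libraries were thus both higher than the WT libraries and closer to each other on the log2 scale. In the authors' deposited tables the log2 fold change was 0.80 in JMJ28np5-OE against WT, or 1.75-fold (FDR 6.37e-04), and -1.17 in jmj28 against JMJ28np5-OE, or 2.25-fold (FDR 2.45e-08). In jmj28 against WT the authors' deposited table gave -0.37 (unadjusted p 0.0476, FDR 0.834), which did not pass. Gene model AT5G37760, on the opposite strand, overlaps TCH2 by 723 bases and is listed at 0 reads. The limit on antisense reads given for TCH3 holds for TCH2 too.

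CML23 is a gene of 1 exon on the minus strand of chromosome 1 at 24770419 to 24771393. Its implied mean in jmj28 was 2.58 RPKM, about 63.8 reads over both libraries. The JMJ28np5-OE libraries held 5.05 RPKM (61 reads) and 8.10 RPKM (84 reads), and the WT libraries 4.06 RPKM (78 reads) and 3.80 RPKM (53 reads). JMJ28np5-OE and WT did not overlap, but the JMJ28np5-OE libraries differed by more than those of WT. In jmj28 against JMJ28np5-OE the log2 fold change in the authors' deposited table was -1.40, or 2.64-fold (FDR 5.75e-04). Against WT, the authors' deposited tables gave -0.65 in jmj28 (unadjusted p 0.0469, FDR 0.827) and 0.75 in JMJ28np5-OE (unadjusted p 0.0110, FDR 0.221), neither of which passed.

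The 300 bases before the annotated start were read from the RefSeq assembly TAIR10.1, where all 9 genes had the same start, end and strand as in the deposited tables. They are shown for TCH2 and CML23, the related pair, and for CML9 and CML42, which passed in no comparison. Each runs 5′ to 3′ on the strand of the gene, and capitals mark CGCG, which reads the same on both strands. The regions are chr5:14999620-14999919 for TCH2, chr1:24771394-24771693 for CML23, chr3:19269659-19269958 for CML9 and chr4:11134076-11134375 for CML42, all on the minus strand.
TCH2: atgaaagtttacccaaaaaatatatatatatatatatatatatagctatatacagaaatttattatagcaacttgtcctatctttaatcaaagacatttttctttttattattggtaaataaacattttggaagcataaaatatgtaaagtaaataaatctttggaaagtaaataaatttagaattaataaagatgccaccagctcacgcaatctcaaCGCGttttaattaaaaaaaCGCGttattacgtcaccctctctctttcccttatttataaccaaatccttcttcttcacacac
CML23: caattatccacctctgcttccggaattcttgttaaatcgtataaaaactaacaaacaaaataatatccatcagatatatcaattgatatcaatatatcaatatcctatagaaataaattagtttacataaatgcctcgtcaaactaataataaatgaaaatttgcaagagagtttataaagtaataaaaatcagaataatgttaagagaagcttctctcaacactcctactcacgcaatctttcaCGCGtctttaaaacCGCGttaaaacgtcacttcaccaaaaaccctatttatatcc
CML9: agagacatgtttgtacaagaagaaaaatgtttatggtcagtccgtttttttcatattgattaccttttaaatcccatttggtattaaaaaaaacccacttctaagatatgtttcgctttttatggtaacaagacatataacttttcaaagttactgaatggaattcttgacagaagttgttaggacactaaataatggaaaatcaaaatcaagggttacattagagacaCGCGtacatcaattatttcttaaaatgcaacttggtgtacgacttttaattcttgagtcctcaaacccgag
CML42: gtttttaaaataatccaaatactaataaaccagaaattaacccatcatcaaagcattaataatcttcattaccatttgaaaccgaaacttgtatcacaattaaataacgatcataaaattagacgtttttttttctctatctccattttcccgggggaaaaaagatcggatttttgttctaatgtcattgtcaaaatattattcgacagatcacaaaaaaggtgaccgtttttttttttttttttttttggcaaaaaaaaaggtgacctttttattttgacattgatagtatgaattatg

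TCH2 held CGCG at 82 and 63 bases before its start, CML23 at 55 and 41, and CML9 at 71. CML42 held none, nor did TCH3, CML8, CML37, CML38 and CML39, and none was found before any of the 7 annotated transcript starts of TCH3. The window of TCH3 overlaps the gene models CML10 and AT2G09220 and is not shown. Windows of the same length before 27443 genes held CGCG in 11.8% of cases, so 3 of 9 is a description of these windows only. The longer form CGCGTT, searched on both strands, lay before TCH2 and CML23 and in 3.08% of all windows. Its 4 matches before TCH2 overlap in pairs at the 2 CGCG positions.

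TCH2 and CML23 also shared the run ctcacgcaatct of 12 bases, at 97 bases before the start of TCH2 and 71 before that of CML23. In both genes it stands just upstream of the first CGCG. Of the 27443 windows, 2 held this run on either strand, those of TCH2 and CML23. The run was picked as the longest shared by these 2 windows, so its presence in both was fixed by that choice. A run of 12 bases was also the longest shared by 2 other pairs among the 36 pairs of the 9 windows. The windows that hold the runs of those 2 pairs were not counted. The W-box core TTGAC, a WRKY binding element, lay before CML9, CML23, CML38 and CML42 and in 50.4% of all windows. TATAAA lay before TCH2, CML23 and CML39 and in 52.9% of windows, and the G-box CACGTG lay before none of the 9 and in 7.09% of windows. All of these motifs were searched on both strands, and the TATAAA match before TCH2 reads TTTATA on the strand of the gene.

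**Figure D2:**
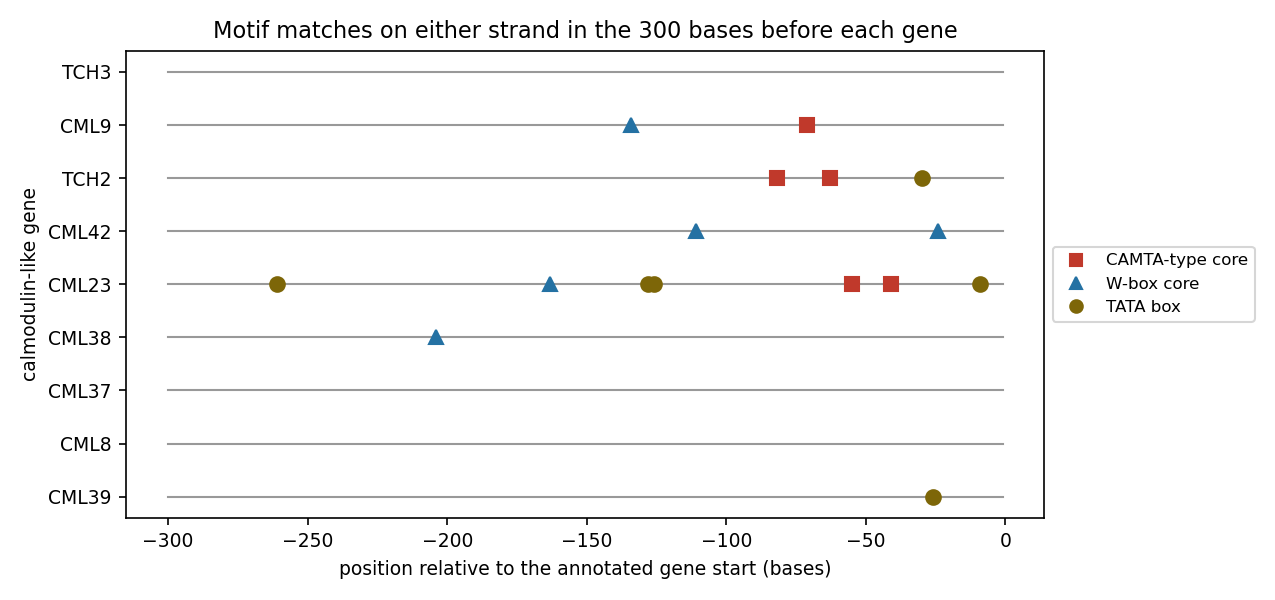
Matches to 3 short motifs in the 300 bases before each of the 9 genes, by distance from the annotated gene start (bases, negative upstream), on either strand. Squares mark the CAMTA-type core CGCG, triangles the W-box core TTGAC and circles TATAAA. The CGCG matches before TCH2, CML23 and CML9 lie between 82 and 41 bases before the start.

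CML37, CML38 and CML39 form a second related group. CML37 is known from responses to herbivores through jasmonate and to drought, CML38 from responses to low oxygen and wounding, and CML39 from seedling establishment. CML37 and CML38 were lower in jmj28 than in JMJ28np5-OE, and neither passed against WT. CML38 and CML39 lie 883 bases apart on chromosome 1, at 28766750 to 28768138 and 28765254 to 28765866, both on the minus strand, and their proteins of 177 and 159 residues were 79.9% identical, the highest identity of the 36 pairs. CML37, at 16942447 to 16943820 on the minus strand of chromosome 5, encodes 185 residues and was 51.4% identical to CML38 and 53.2% to CML39. Whether reads were shared between these copies in the counting was not tested.

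CML37 had an implied mean of 0.155 RPKM in jmj28, about 5.38 reads over both libraries. The JMJ28np5-OE libraries held 1.94 RPKM (33 reads) and 1.10 RPKM (16 reads), and the WT libraries 0.0739 RPKM (2 reads) and 0.712 RPKM (14 reads). JMJ28np5-OE thus lay above WT in both libraries, while the WT libraries differed from each other by -3.27 on the log2 scale, deeper over shallower. In jmj28 against JMJ28np5-OE the log2 fold change in the authors' deposited table was -3.37, or 10.3-fold (FDR 0.00258). The authors' deposited tables gave 2.01 in JMJ28np5-OE against WT (FDR 0.0988) and -1.36 in jmj28 against WT (FDR 1.000). Both values moved with the WT libraries. Without the shallower WT library the log2 ratios were 4.36 in JMJ28np5-OE and 1.07 in jmj28, and without the deeper one they were 1.09 and -2.20, so the side of WT on which jmj28 lay rests on 1 library.

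CML38 had an implied mean of 0.907 RPKM in jmj28, about 22.8 reads over both libraries. The JMJ28np5-OE libraries held 2.03 RPKM (25 reads) and 3.03 RPKM (32 reads), between the WT libraries at 3.27 RPKM (64 reads) and 1.34 RPKM (19 reads). JMJ28np5-OE and WT thus overlapped, and jmj28 was below every solved library. The log2 fold change was -1.52 in jmj28 against JMJ28np5-OE (2.87-fold, FDR 0.0401) and -1.40 in jmj28 against WT (unadjusted p 0.00532, FDR 0.270) in the authors' deposited tables. In JMJ28np5-OE against WT the authors' deposited table gave 0.12 (FDR 1.000). Leaving out the deeper WT library gave log2 ratios of -0.56 in jmj28 and 0.92 in JMJ28np5-OE against WT.

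CML39 had 1 and 0 reads in JMJ28np5-OE and 3 and 3 reads in WT, and its implied mean in jmj28 corresponds to less than 1 read. These counts are at the level where a fold change has no meaning, and none is given. No difference in CML39 was detectable at this depth.

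CML8, CML9 and CML42 passed the test in no comparison. CML9, known from salt and abscisic acid responses and from defence, had the highest mean of the 9 in jmj28 and WT and the second-highest in JMJ28np5-OE. It lies at 19267951 to 19269658 on the minus strand of chromosome 3. Its implied mean in jmj28 was 25.0 RPKM, against 28.3 RPKM (360 reads) and 34.5 RPKM (377 reads) in JMJ28np5-OE, and 26.2 RPKM (530 reads) and 29.6 RPKM (435 reads) in WT. The solved libraries overlapped. The largest difference in the authors' deposited tables was a log2 fold change of -0.39 in jmj28 against JMJ28np5-OE (unadjusted p 0.00734, FDR 0.0795).

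CML42, known from trichome branching and herbivore defence, was the only one of the 9 that was not lowest in jmj28. It lies at 11133095 to 11134075 on the minus strand of chromosome 4. It had 9.78 RPKM (130 reads) and 11.0 RPKM (127 reads) in jmj28, 8.23 RPKM (100 reads) and 10.4 RPKM (108 reads) in JMJ28np5-OE, and an implied mean of 8.93 RPKM in WT. The jmj28 and JMJ28np5-OE libraries overlapped. The log2 fold changes in the authors' deposited tables were 0.19 in jmj28 against WT, 0.08 in JMJ28np5-OE against WT and 0.11 in jmj28 against JMJ28np5-OE, each with an FDR of 1.000.

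CML8, known from immunity to Ralstonia, lies at 8397693 to 8400226 on the plus strand of chromosome 4. It had an implied mean of 0.646 RPKM in jmj28, 0.421 RPKM (5 reads) and 0.882 RPKM (9 reads) in JMJ28np5-OE, and 0.952 RPKM (18 reads) and 0.510 RPKM (7 reads) in WT. The JMJ28np5-OE and WT libraries overlapped, and with under 20 reads in each solved library a moderate difference was not detectable. CML8 is the member closest to calmodulin in sequence, with 73.2% identity to CAM3, beside 61.1% for TCH3, 49.7% for CML9 and 42.8% for TCH2.

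Counted by comparison, calls among the 9 genes, as among all tested genes, were most frequent between the altered lines. In jmj28 against WT, 1 of the 9 was lower at an FDR under 0.05 and 0 were higher in the authors' deposited table, where 1.30% of the 23542 tested genes passed, 1.10% lower and 0.208% higher. At an unadjusted p under 0.05, TCH3, TCH2, CML23 and CML38 had a log2 fold change below 0 in the authors' deposited table. At that p, 4 members were higher and 0 lower in JMJ28np5-OE against WT. In jmj28 against JMJ28np5-OE, 6 were lower and 0 higher. The share of all tested genes at an unadjusted p under 0.05 is not given here, so these counts stand without a background. In JMJ28np5-OE against WT, 2 of the 9 were higher and 0 lower in the authors' deposited table, where 3.55% of genes passed, 2.87% higher and 0.684% lower. In jmj28 against JMJ28np5-OE, 5 of the 9 were lower (TCH3, TCH2, CML23, CML37 and CML38) and 0 higher in the authors' deposited table, where 11.4% of genes passed, 7.29% lower and 4.12% higher. The median log2 fold change of the 9 in the authors' deposited tables was -0.65, 0.20 and -1.40 in the 3 comparisons in that order, beside -0.004, 0.002 and -0.015 over all tested genes. Without CML39, a choice made after its reads were seen, the medians were -0.51, 0.47 and -1.28. The libraries of JMJ28np5-OE and WT did not overlap, with JMJ28np5-OE higher, in 4 of the 8 members with all 4 libraries solved (TCH2, TCH3, CML23 and CML37), beside 28.7% of 7655 such genes, and with JMJ28np5-OE lower in 1 (CML39), beside 6.61%. CML39 had at most 3 reads in each of these libraries. All 4 libraries are solved only in genes with their lowest mean in jmj28, or with 0 for both lower means. The 28.7% and 6.61% are therefore shares of such genes, not of all tested genes. With 2 libraries against 2, an exact two-sided permutation test of a single gene cannot go below a p of 0.333. The authors' shorter deposited list for jmj28 against WT, of 533 genes with a p under 0.05 and at least 1.5-fold lower, held 3 of the 9 (TCH3, CML23 and CML38), and its length is 2.26% of the tested genes.

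**Figure D3:**
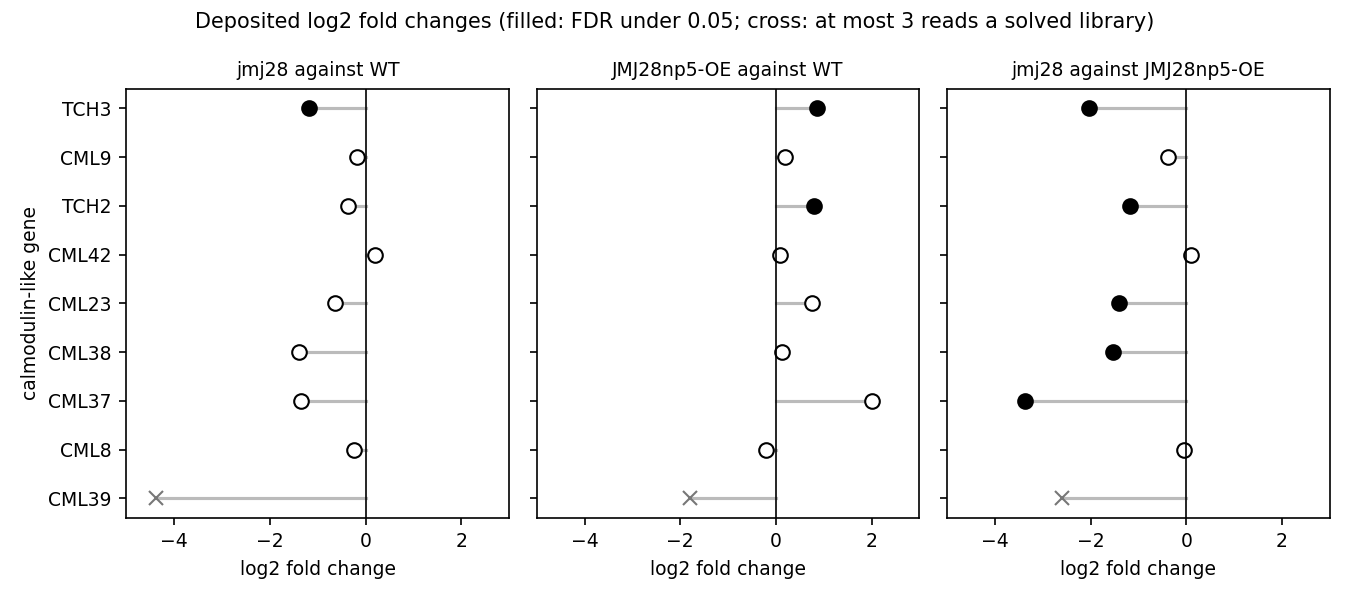
Deposited log2 fold change of each of the 9 genes in the 3 comparisons, named above each panel. Filled circles passed an FDR of 0.05, open circles did not, and crosses mark CML39, which had at most 3 reads in a solved library. The right panel holds 5 filled circles, all below 0, while the left panel holds 1.

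The libraries of a genotype differed together in part of this group. In JMJ28np5-OE, 7 of the 8 genes with reads in both libraries had their higher value in the shallower one, with a median log2 ratio of deeper over shallower of -0.43 and the exception of CML37 at 0.82. In WT the deeper library held the higher value for 4 genes and the shallower for 4, with extremes of -3.27 for CML37 and 1.29 for CML38. Over all genes above 5 RPKM the median of this ratio was -0.06 in JMJ28np5-OE and -0.02 in WT. The share of all genes with the higher value in the deeper or the shallower library is not given here. A list of 13 other genes of touch, wounding and early stress showed library differences too. In JMJ28np5-OE 12 of the 13 had the higher value in the shallower library, with a median of -0.69, and in WT 7 of 10 had it in the deeper library, with a median of 0.42. Among these, ERF104, an ethylene response factor of early stress, had 36.5 RPKM in the deeper WT library and 11.6 RPKM in the shallower. The part of such library differences in the members' values was not tested. Across the 20 values of called members recomputed with 1 solved library left out, none turned and none moved by more than 1.5-fold, the largest move being 0.55 on the log2 scale.

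The calmodulins themselves, the main calcium sensors of the family, did not pass in any comparison. The 7 calmodulin genes passed the authors' test 0 times in the 3 comparisons, 0 also at an unadjusted p under 0.05, and their log2 fold changes in the authors' deposited tables stayed between -0.18 and 0.06. CAM3, for example, had 136 and 139 RPKM in jmj28 and 138 and 146 RPKM in WT. The 6 CAMTA genes likewise passed 0 times, 1 having an unadjusted p under 0.05 in jmj28 against JMJ28np5-OE, with log2 fold changes between -0.26 and 0.19 in the authors' deposited tables. No test of the difference between these groups and the 9 genes was run.

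Of 41 other calmodulin-like genes, 32 had reads. By the authors' test none passed in jmj28 against WT (2 had an unadjusted p under 0.05), 3 were higher and 0 lower in JMJ28np5-OE against WT, and 5 were lower and 0 higher in jmj28 against JMJ28np5-OE. CML16 (AT3G25600) had 12.1 and 15.9 RPKM in JMJ28np5-OE and 8.65 and 6.33 RPKM in WT, and the authors' deposited tables gave it a log2 fold change of 0.90 in JMJ28np5-OE against WT (FDR 9.50e-04) and -1.12 in jmj28 against JMJ28np5-OE (FDR 9.38e-06). AT3G29000, here CML45 and named CML30 in the files, had 0.673 and 0.870 RPKM in jmj28 and 2.67 and 2.79 RPKM in JMJ28np5-OE, and a log2 fold change of 1.83 in JMJ28np5-OE against WT (FDR 0.0143) in the authors' deposited table. AT5G39670, here CML46 and named CML45 in the files, was the other gene higher in JMJ28np5-OE, at 0.84 (FDR 0.0141) in the authors' deposited table. Between the altered lines CML10, CML35, CML40 and AT3G29000 were also lower in jmj28, with log2 fold changes of -0.54, -0.44, -1.94 and -1.88 in the authors' deposited table.

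Of 16 genes for calcium pumps, exchangers and channels, 1 was higher in JMJ28np5-OE against WT, and 2 were lower in jmj28 against JMJ28np5-OE. ACA8, a plasma membrane calcium pump, had a log2 fold change of 0.47 in JMJ28np5-OE against WT (FDR 0.0106) and -0.38 in jmj28 against JMJ28np5-OE (FDR 0.0356) in the authors' deposited tables. ACA13 had -1.89 in jmj28 against JMJ28np5-OE (FDR 0.00659) in the authors' deposited table, and its log2 ratio was -0.91 when the deeper JMJ28np5-OE library was left out.

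Among the 13 other touch and early stress genes, 3 were lower in jmj28 against WT, 8 higher in JMJ28np5-OE against WT and 10 lower in jmj28 against JMJ28np5-OE in the authors' deposited tables. At an unadjusted p under 0.05, 6 were lower and 1 higher in jmj28 against WT. MYC2 had a log2 fold change of 1.87 in JMJ28np5-OE against WT (FDR 4.84e-10) but 0.16 in jmj28 against WT (unadjusted p 0.529) in the authors' deposited tables. TCH4, a touch-inducible xyloglucan endotransglucosylase, had 23.6 and 39.0 RPKM in JMJ28np5-OE and 11.0 and 8.22 RPKM in WT. Its log2 fold change in the authors' deposited tables was 1.72 in JMJ28np5-OE against WT (FDR listed as 0) and -0.71 in jmj28 against WT (FDR 0.110). The 3 genes lower in jmj28 were ZAT10, ERF104 and CAF1A, at -1.78, -1.63 and -2.03 in the authors' deposited table. When the deeper WT library was left out, their log2 ratios were -1.02, -0.58 and -1.01. When the shallower WT library was left out, ERF104 had -2.23 and CAF1A -2.62.

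**Figure D4:**
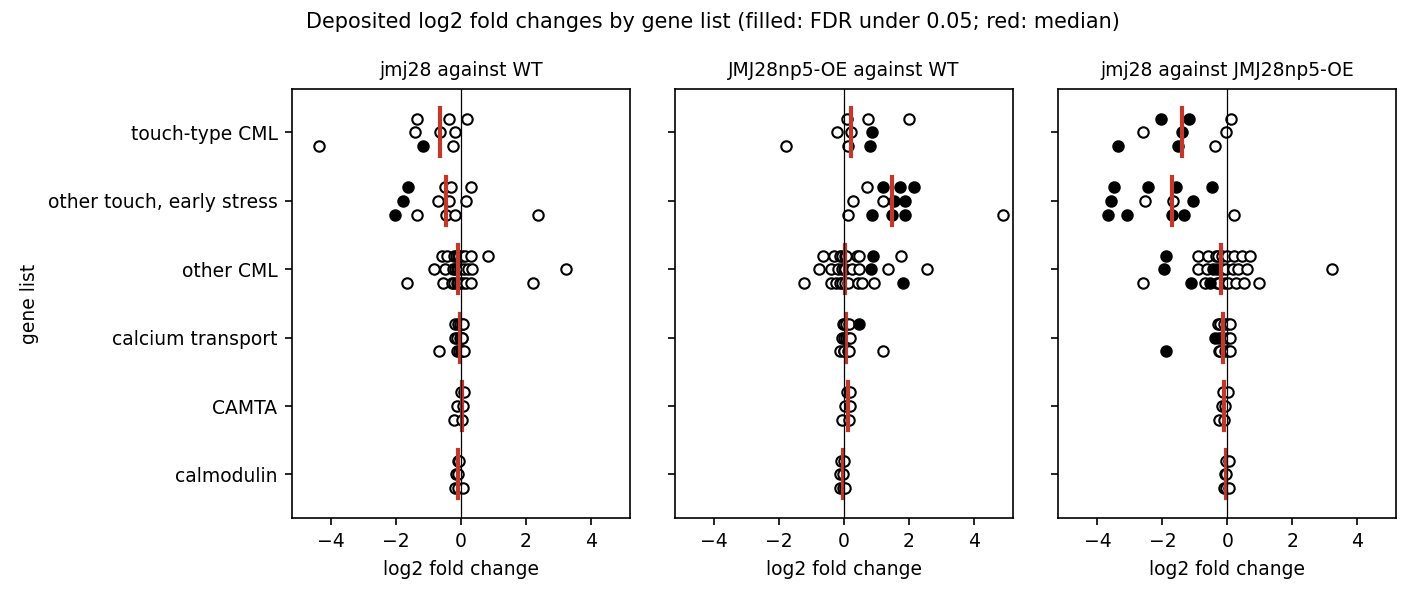
Deposited log2 fold changes of the 9 genes and of 5 related gene lists, 1 point per gene with reads, in the 3 comparisons named above the panels. Filled points passed an FDR of 0.05, and red bars are list medians. The 7 calmodulins and 6 CAMTA genes lie close to 0 in each panel, while the medians of the 9 genes are -0.65, 0.20 and -1.40.

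Tissue markers were read in the same tables. Of 4 root markers, 2 were higher in jmj28 against WT in the authors' deposited table, TIP2;3 at 1.01 (FDR 1.31e-04) and AGP30 at 0.93 (FDR 0.00169), and 3 were higher in jmj28 against JMJ28np5-OE. The summed level of the root markers was 1086 RPKM in jmj28, 863 RPKM in JMJ28np5-OE and 1003 RPKM in WT, partly from implied means and nearly all from PYK10. Without PYK10 the other root markers summed to 48.3 RPKM in jmj28, 30.6 RPKM in JMJ28np5-OE and 30.0 RPKM in WT. The shoot markers LHCB2.1 and CA1 summed to 1195 RPKM in jmj28 and 1212 RPKM in WT, from solved libraries, and to an implied 1191 RPKM in JMJ28np5-OE, and 0 of 3 shoot markers passed, 0 also at an unadjusted p under 0.05. The floral markers AP3 and PI summed to 1.52 RPKM in jmj28, 3.02 RPKM in JMJ28np5-OE and 1.70 RPKM in WT, with AP3 at -2.11 in jmj28 against JMJ28np5-OE (FDR 0.00721) in the authors' deposited table. The seed storage gene CRA1 was under 1 RPKM in each genotype. The part of tissue make-up in the members' values was not tested.

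The genes next to the 9 on the chromosomes mostly did not pass. Of the 16 adjacent genes outside the group, 12 had reads. By the authors' test none passed against WT, with 2 in jmj28 and 1 in JMJ28np5-OE at an unadjusted p under 0.05, and 2 passed in jmj28 against JMJ28np5-OE. They were GLP9, a germin-like gene 3832 bases from CML8, at 0.75 (FDR 0.00339), and MYB90, an anthocyanin regulator 4877 bases from CML23, at -4.89 (FDR 3.58e-04), in the authors' deposited table. For TCH3 the adjacent models lie on its opposite strand, overlap it and are listed without reads. The nearest gene with reads is CML10, which ends 37 bases before TCH3 on the same strand and was lower in jmj28 than in JMJ28np5-OE, as TCH3 was, at -0.54 (FDR 5.88e-04), while its value in jmj28 against WT was -0.42 (FDR 0.0700) in the authors' deposited tables. Counted over the nearest genes with reads, a choice made after the values were seen, 3 of 16 passed in jmj28 against JMJ28np5-OE and 0 in either comparison against WT (3 in jmj28 and 1 in JMJ28np5-OE at an unadjusted p under 0.05). Calmodulin genes lie beside both genes of the related pair, CAM1 at 4846 bases from TCH2 and CAM4 at 2719 bases from CML23. This is not particular to the pair, since CAM2 lies 482 bases after TCH3 on the same strand. None of these calmodulins passed in any comparison, with log2 fold changes between -0.10 and 0.06 in the authors' deposited tables.

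The genes most like the median member were sought among 4110 genes of at least 5 RPKM, by Euclidean distance over 4 log2 values, namely jmj28 against WT, JMJ28np5-OE against WT, and deeper over shallower library in JMJ28np5-OE and in WT. All 4 values exist only for genes with both libraries of JMJ28np5-OE and of WT solved. Every candidate therefore already had its lowest mean in jmj28, as the members compared here did. The median of the 7 members with all 4 values was -0.65, 0.75, -0.53 and 0.10. The nearest 5 genes were BEE3 at a distance of 0.11, PUMP5 at 0.16, AT3G52480 at 0.17, VSP2 at 0.19 and WRKY22 at 0.22. BEE3 is a bHLH factor of brassinosteroid signalling, PUMP5 a mitochondrial carrier, VSP2 a jasmonate-responsive storage protein and WRKY22 a defence-related transcription factor. BEE3 had 12.8 and 19.3 RPKM in JMJ28np5-OE and 10.3 and 9.28 RPKM in WT, a likeness that the search itself selected.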

How the data were processed

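Per the labels' protocols, total RNA of 14-day-old seedlings was made into 6 libraries with a TruSeq RNA kit, and per the submitters' processing notes the genome build was TAIR10. The aligner, counter and statistical test were not given in the sources used here. Per the file headers, the 3 deposited tables give each gene's log2 fold change and signed fold change (a score), with its p-value, FDR and Bonferroni p. The deposited level is the higher of the compared genotype means, in RPKM, a unit that follows from the authors' values and exon lengths. Genes without reads, 10720 of 34262, have no test. A gene was called at a deposited FDR under 0.05.

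From the means, library totals and whole reads were solved within a tolerance of 1e-07. Of 45903 means, 98.9% had 1 solution, 14 had more than 1 and 497 had none. Simulated means of the highest genotype, drawn around the reads of solved genes, gave the true reads in 8838 of 8838 cases. Second-highest means, where the genotype is also searched, were not simulated. A lowest genotype mean was implied from the deposited fold change, which over genes with 50 to 500 reads followed the RPKM ratio with an SD of at most 0.011 on the log2 scale. Over genes with 5 to 50 reads the SD was at most 0.041. CML37 and CML39 had fewer reads than that in a solved library. No table carries a value per library, so no count model was fitted, and the authors' deposited test stands in its place.

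Promoter windows and translated coding sequences came from RefSeq TAIR10.1 with pysam 0.24.0 and Biopython 1.88 in Python 3.11.15. EF-hand loops were counted by a pattern of 12 residues. The 9 members and all lists were chosen with earlier results of these data known. Named genes were the members, JMJ28, up to 4 called genes per list and comparison with the smallest FDR, adjacent genes and the 5 nearest by pattern. Genes named beyond these, namely CAM2, CAM3, CML40, LHCB2.1, CA1, PI and CRA1, were chosen after their values were seen. Alternatives were other adjustments, a 2-fold minimum, 1 RPKM added to each mean, the ratio of solved means, and each solved library left out.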

Additional observations from a re-analysis of the deposited data

How the results depend on the processing

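The count of called members in jmj28 against WT was 1 under each alternative run. In JMJ28np5-OE against WT it was 2, and 0 with the deposited Bonferroni p under 0.05 or with at least 2-fold. In jmj28 against JMJ28np5-OE it was 5, 2 with the Bonferroni p, and 6 with p-values adjusted over genes of at least 1 RPKM, which adds CML9. Over all genes, the Bonferroni p called 95, 210 and 630 genes in the 3 comparisons and the 2-fold minimum 114, 174 and 639, against 307, 836 and 2687. With 1 RPKM added to each mean the median log2 change of the members was -0.29 in jmj28 against WT and -0.89 in jmj28 against JMJ28np5-OE, since added RPKM shrinks low genes. With 1 library left out the medians ran between -0.61 and -0.56 in jmj28 against WT, between 0.02 and 0.77 in JMJ28np5-OE against WT, and between -1.44 and -0.99 in jmj28 against JMJ28np5-OE. CML42, not solved in WT, or CML39 drops out of some of these, so the members differ too. In JMJ28np5-OE against WT, the 0.77 without the deeper WT library and the 0.65 without the deeper JMJ28np5-OE library each stand beside 0.47 with all libraries over the 8 members that remain, without CML42 in the first case and without CML39 in the second, and the 0.02 without the shallower JMJ28np5-OE library beside 0.20 for all 9. In jmj28 against WT, the 8 members had -0.91 with all libraries. The ratio of solved means gave 0.46 for JMJ28np5-OE against WT over 8 members. No member's called value changed sign under any alternative run. Leaving out a jmj28 library, and the ratio of solved means in the jmj28 comparisons, were not run because the jmj28 libraries of 8 members were not solved. No paired analysis was possible because the deposited columns carry no replicate number. Depth limits CML8 and CML39, with under 20 reads in each solved library.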
